A study of Arabidopsis thaliana with 6 samples.

Results

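The conserved microRNA genes of Arabidopsis thaliana were examined for nearby binding sites of FRUITFULL. FRUITFULL (FUL) is a MADS-domain protein with known roles in flowering time, meristem ageing and fruit growth. The set was chosen by name: the annotated genes of families MIR156 to MIR172, MIR319, MIR390, MIR391, MIR393 to MIR399, MIR403 and MIR408. It held 98 of the 37899 genes of the table on 5 chromosomes, in 29 families by number. These form 26 groups when MIR156 is joined with MIR157, MIR165 with MIR166 and MIR170 with MIR171, whose products are near-identical and share targets. A gene was counted when the summit of a peak lay in it or within 3 kb of either end.

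FUL binding had been mapped by ChIP-seq with anti-GFP beads in plants that carried a pFUL:FUL-GFP transgene, in which the FUL promoter drives a GFP-tagged FUL protein. Inflorescence meristems (IM) were taken, without induction, at an age of 4 to 5 weeks from 35S:AP1-GR ap1-1 cal-1 plants, whose apices keep forming meristems in place of flowers. Pistils of stages 12 to 16 were taken from ful-1 plants, which carry a strong mutant allele of FUL beside the transgene. Both lines were of Ler/Col F2 background and were grown at 21 °C in 16 h of light and 8 h of dark. The 6 samples were 2 ChIP replicates and 1 input for each of the 2 tissues. Peaks came as a single list for a tissue, with its replicates pooled, so replicate error is unknown and no test between tissues was made. Tissue and mutant background cannot be told apart.

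MicroRNAs are cut from hairpins in longer primary transcripts by DCL1 and guide AGO1 to complementary messenger RNAs, which are then cleaved or translated less. Many ancient plant microRNAs target transcription factor genes. In the age pathway of flowering, miR156 holds back the SPL genes in young plants, and miR172, which rises later, holds back AP2-like repressors of flowering. Other families act on leaf growth (miR319), auxin response (miR160, miR167, miR390, miR393), organ boundaries (miR164), leaf polarity (miR165 and miR166) or on copper, sulphate and phosphate supply (miR397, miR398, miR408, miR395, miR399).

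Among 3650 peaks of IM the median fold enrichment was 3.77, and among 3494 of pistil it was 4.10. Folds are the authors' values at peak summits, and ranks are within one list. The lists ended at different strengths: the lowest −log10 p was 22.4 in IM and 34.4 in pistil. A listed region can have had several summits, as the letters in 992 IM and 1128 pistil peak names show, but each region is listed with 1 summit. Read depth is unknown from these lists. Position near a peak is no evidence of regulation, and a gene without a listed peak may still be bound.

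A FUL summit lay within 3 kb of 42 of the 98 conserved microRNA genes in IM (42.9%) and of 38 in pistil (38.8%). Among all genes of the table the shares were 21.0% and 19.4%, and among protein-coding genes 23.7% and 21.3%. The 228 other microRNA genes, most of them young and found in few plant species, stood lower, with 31 (13.6%) in IM and 29 (12.7%) in pistil. Since microRNA genes are short, with a median annotated length of 124 bp against 2078 bp for protein-coding genes, the share of chromosome length within 3 kb of a summit is a further measure of background. It was 16.3% for IM and 15.3% for pistil. Both kinds of microRNA gene lay mostly close to protein-coding genes: 87.8% of the conserved and 84.2% of the other ones had such a gene within 3 kb, at a median distance of 1227.5 bp and 294.5 bp. The part of this position in the counts was not tested.

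**Figure D1:**
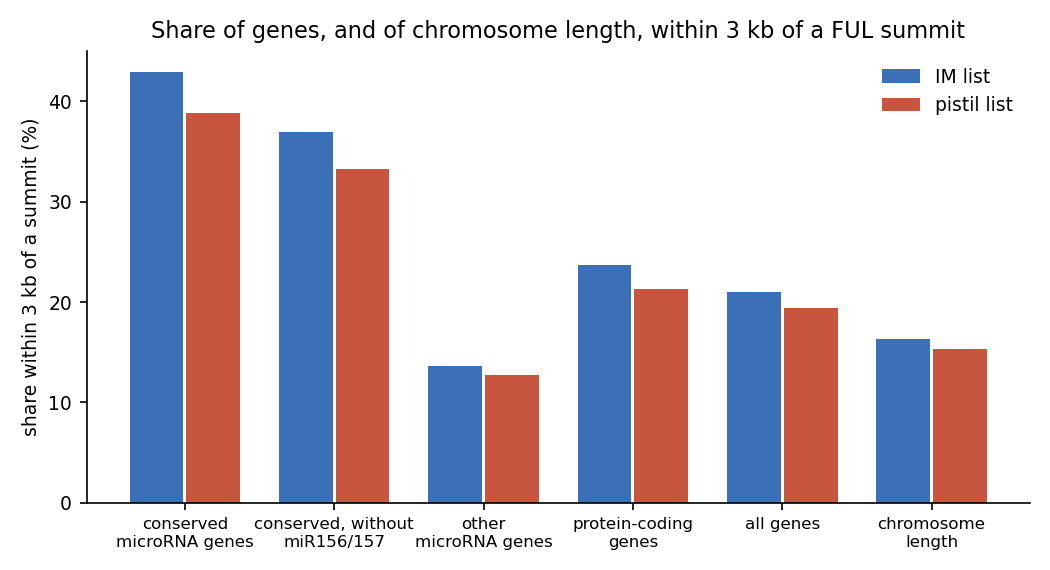
Bars show the share (%) of each class of genes with a FUL summit in the gene or within 3 kb, and at the right the share of chromosome length within 3 kb of a summit, for the IM list (blue) and the pistil list (red). Conserved microRNA genes stand at 42.9% and 38.8%, the other microRNA genes at 13.6% and 12.7%, and all genes at 21.0% and 19.4%.

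Of the conserved genes, 30 had a summit in both lists (30.6%, against 13.7% of all genes, 15.3% of protein-coding genes and 9.21% of the other microRNA genes). A further 12 had one in the IM list alone (12.2%, against 7.3%, 8.36% and 4.39%) and 8 in the pistil list alone (8.16%, against 5.76%, 6.01% and 3.51%). In all, 50 genes had a summit in at least 1 list (51.0%, against 26.7%, 29.7% and 17.1%), which left 48 of the 98 without one. Neighbouring members can share a peak, because 7 stretches of overlapping windows hold 21 of them. Counted as 84 separate loci, 38 loci (45.2%) had a summit in IM and 36 (42.9%) in pistil. In 20 of the 26 family groups at least 1 gene was counted.

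Other ways of counting gave higher shares for the conserved genes as well. Within 1 kb, 22 were counted in IM (22.4%, against 12.0% of all genes and 3.95% of the other microRNA genes) and 20 in pistil (20.4%, against 10.5% and 6.14%). Within 5 kb, 49 were counted in IM (29.5% and 23.7% in the other classes) and 44 in pistil (44.9%, against 27.2% and 21.5%). Counting any overlap of a peak with the gene or its flanks of 3 kb gave 43 in IM (43.9%, against 23.8% and 16.7%) and 40 in pistil (40.8%, against 21.5% and 14.0%). With peaks above the median fold of their list, 22 were counted in IM (22.4%, against 11.5% and 9.21%) and 21 in pistil (21.4%, against 10.5% and 8.33%).

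**Figure D2:**
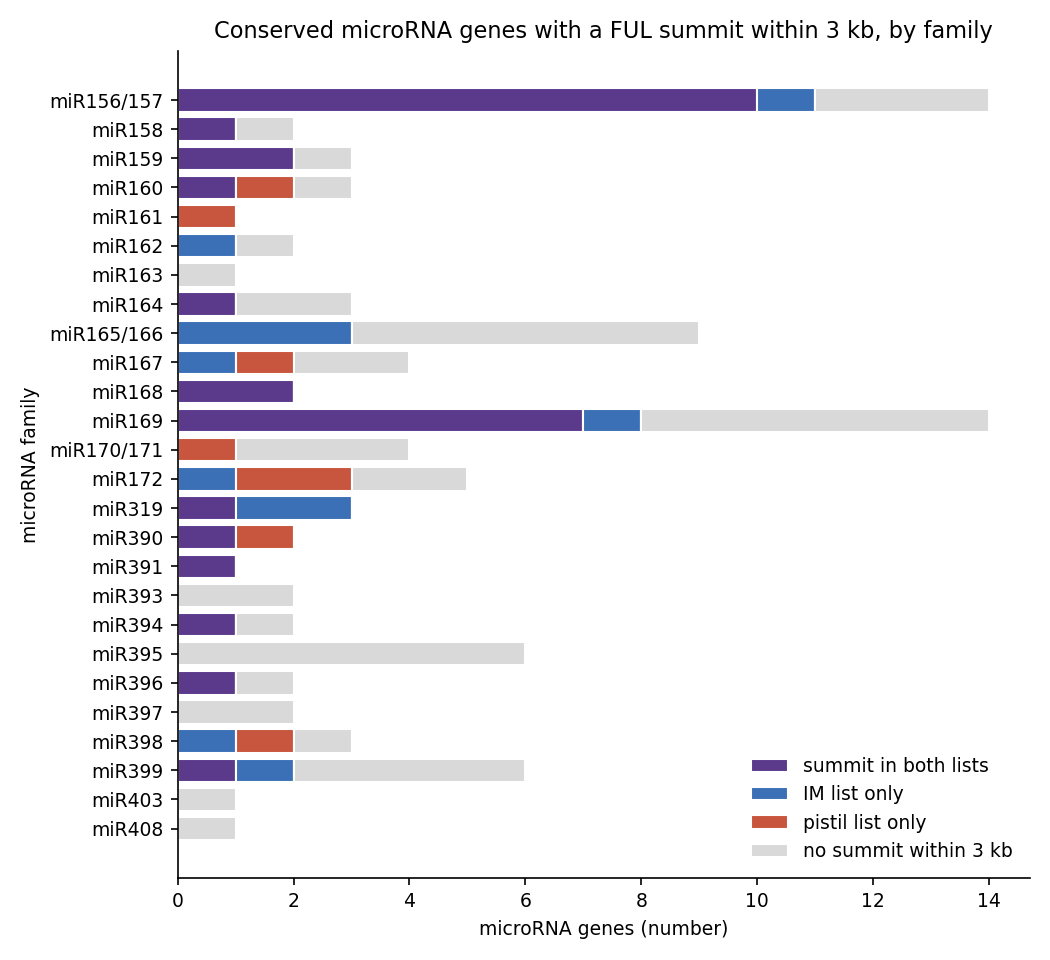
Horizontal bars give the number of genes in each microRNA family, divided by whether a FUL summit lay within 3 kb in both lists (purple), in the IM list alone (blue), in the pistil list alone (red) or in neither (grey). The joined bar of miR156 and miR157 is coloured for 11 of 14 genes. The miR395 bar is grey for all 6 of its genes, which share stretches of overlapping windows.

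The miR156 and miR157 genes, the age pathway's repressors of SPL genes, gave the largest number of counted genes of any family group. Summits lay near 11 of 14 in IM and 10 in pistil, where 21.0% and 19.4% of all genes were counted. Size enters this number, since the group has 14 genes, as many as miR169. In the smaller miR168 group both genes were counted in both lists. MIR156a, b, c, d, e, f, i and j and MIR157c and d were found in both lists. MIR157a was found in the IM list, 2354 bp from the summit (fold 4.56), and its nearest pistil summit was 11806 bp away. MIR156g, MIR156h and MIR157b had no summit within 3 kb in either list. Of the family's genes, 7 in IM and 8 in pistil had a peak above the median fold of the list. Without this family, 31 (36.9%) of the other 84 genes were counted in IM and 28 (33.3%) in pistil.

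MIR157c had the highest fold of the family in pistil, 9.79 at 1753 bp from the gene (chromosome 3, 6245956 to 6246992 on TAIR10, rank 155 of 3494), with the summit inside the non-coding gene AT3G03645. The IM list had a peak at the same place, with its summit 1 bp from the pistil one and a fold of 5.17 (rank 652 of 3650), and a second, weak peak 707 bp from the gene (fold 2.61, rank 3641). At MIR156a, a main source of miR156 in seedlings, the fold was 8.47 in pistil (rank 284) and 3.10 in IM (rank 2995), at summits 3 bp apart and about 2.5 kb from the gene (2499 bp and 2502 bp). This peak lay nearer to the kinase gene CIPK16, at 1060 bp. The site thus ranked among the strong ones of the pistil list and among the weak ones of the IM list.

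MIR156e, MIR156f and MIR156d each had 1 peak in each list, all above the list median. The MIR156e peak, with the microRNA gene as the nearest gene of any kind, had a fold of 6.05 in IM (rank 338, 1523 bp away, chromosome 5, 3863500 to 3866364) and 7.60 in pistil (rank 400, 1461 bp). The MIR156f summit was 2721 bp away in IM (fold 6.67, rank 204) and 2757 bp in pistil (6.85, rank 539), close to the edge of the window, and the cytokinin-activating gene LOG9 was nearer, at 1483 bp and 1447 bp. MIR156d, which is annotated inside the gene AT5G10946, was reached by both peaks, with summits at 1047 bp and 1050 bp and folds of 5.67 (IM, rank 457) and 6.25 (pistil, rank 681). MIR156c, the other main source of miR156 in seedlings, was the nearest gene to summits at 539 bp in IM (fold 4.13) and 522 bp in pistil (4.91). MIR157d was nearest to summits at 206 bp (fold 3.14, IM) and 193 bp (4.76, pistil), and both peaks overlapped the gene. MIR156b, which lies in the non-coding gene AT4G30975, had 3 IM peaks (folds 4.08, 4.54 and 3.31) and 2 pistil peaks (3.10 and 3.32). The summits with folds of 3.31 and 3.32 were inside AT4G30975 and the others inside its neighbour AT4G30970.

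MIR156i and MIR156j need a separate word, since their annotated positions lie wholly inside SPL4 and SPL9, themselves targets of miR156. The peaks counted for them thus lay at or in these SPL genes. At MIR156i the summits were 928 bp (IM, fold 3.27) and 975 bp away (pistil, 4.13), and 274 bp and 321 bp outside SPL4. At MIR156j the summits at 1826 bp (IM, 3.34), 731 bp (IM, 3.0) and 1770 bp (pistil, 3.43) were all inside SPL9. Without these members, 40 of the conserved genes were counted in IM and 36 in pistil.

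The miR172 genes act later in the age pathway, and 3 of the 5 had a summit in either list. No member of the family had a summit in both lists. MIR172b had 2 pistil peaks, with a fold of 5.65 at 604 bp (chromosome 5, 1187215 to 1187965, rank 864), where it was the nearest gene, and 3.38 at 1689 bp. Its nearest IM summit was 80896 bp away. MIR172a had a pistil peak at 1697 bp (fold 3.13, rank 3082), and the nearest IM summit was at 5180 bp. MIR172d had an IM peak at 2005 bp (fold 3.13), with a −log10 p of 33.9, just under the lowest of the pistil list. Non-coding genes were nearer to the summits of MIR172a (AT2G08215, at 79 bp) and MIR172d (AT3G08495, at 177 bp). The nearest summits of MIR172c were 11961 bp (IM) and 6850 bp away (pistil), and those of MIR172e 4553 bp and 9150 bp.

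The highest fold near any conserved microRNA gene belonged to MIR319c in both lists. MiR319 restrains the CIN-type TCP genes of leaf and petal growth. The pistil summit 2269 bp from MIR319c had a fold of 15.3, rank 1 of 3494, and the IM summit at 2282 bp a fold of 9.32, rank 4 of 3650. Both lay nearer to the autophagy gene ATG18C, at 244 bp and 231 bp. The IM region was 4068 bp wide (chromosome 2, 17029027 to 17033094) and covered the whole of MIR319c, whereas the pistil region of 1462 bp (17031398 to 17032859) did not reach it. MIR319a, known from the jaw mutant with crinkled leaves, had 2 IM peaks, at 570 bp (fold 3.42) and 2054 bp (3.56), and its nearest pistil summit was 6742 bp away. MIR319b had an IM peak at 353 bp (fold 2.84, rank 3511) and a pistil summit at 4398 bp, outside the window. Of the related miR159 genes, which target GAMYB-like MYB genes, MIR159a and MIR159b were counted in both lists. MIR159a was nearest to summits at 247 bp (IM, 4.33) and 255 bp (pistil, 5.24), and MIR159b had summits at 1028 bp (4.24, rank 1286) and 1094 bp (5.46, rank 947). The MIR159b peaks (chromosome 1, 6219125 to 6220489 in IM and 6219215 to 6220336 in pistil) had their summits inside the non-coding genes AT1G05377 and AT1G05373. MIR159c had its nearest summits at 4653 bp and 4738 bp.

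**Figure D3:**
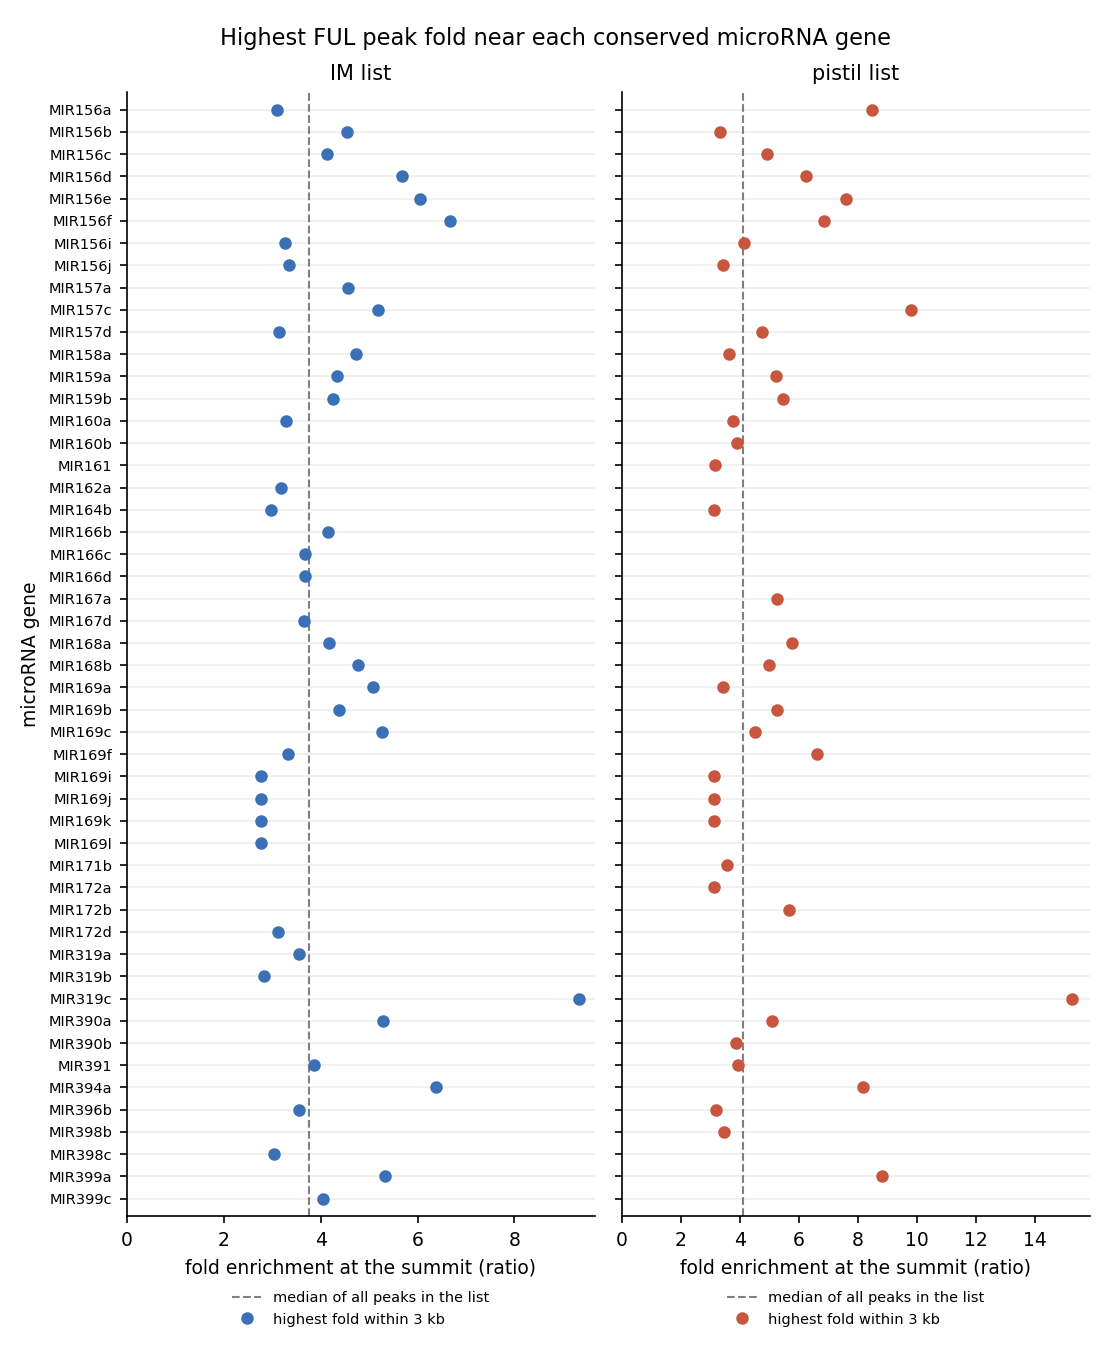
Each point is the highest fold enrichment (ratio, at the summit) among peaks within 3 kb of 1 conserved microRNA gene, in the IM list (left) and the pistil list (right), for the 50 genes with a peak in either list. Dashed lines mark the median of all peaks of each list, 3.77 and 4.10, and a missing point means no listed summit within 3 kb. MIR319c lies farthest to the right in both panels.

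Among families that act on auxin response, MIR160a, which targets the ARF10, ARF16 and ARF17 genes, had summits at 912 bp in IM (fold 3.28) and 1001 bp in pistil (3.77), while MIR160b had a pistil peak at 2722 bp (3.90) and MIR160c no summit within 3 kb. For miR167, which targets ARF6 and ARF8 and is needed for fertile ovules and anthers, MIR167a had a pistil peak at 1276 bp (fold 5.26), with an IM summit at 3684 bp just outside the window (4.21). MIR167d had an IM peak at 826 bp (3.65), and MIR167b and MIR167c had none. MIR390a, which starts the TAS3 small RNAs that hold down ARF2, ARF3 and ARF4, was the nearest gene to summits at 826 bp in IM (fold 5.28, rank 603) and 858 bp in pistil (5.07, rank 1121). MIR390b had a pistil peak at 348 bp (3.86), 1 bp from the gene TAF15b. Neither of the miR393 genes, which target auxin receptor genes, had a summit within 3 kb in either list.

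Among families that pattern meristems and organs, MIR394a had the strongest peak for which the microRNA gene was the nearest gene. MiR394 targets LCR and is known for keeping stem cells of the shoot competent. The MIR394a summits were 2061 bp away in IM (fold 6.37, rank 255, chromosome 1, 7055599 to 7056779) and 2040 bp in pistil (8.18, rank 323), and MIR394b had none within 3 kb. The miR165 and miR166 genes, which target the HD-ZIP III genes of leaf and carpel polarity, were counted in IM for 3 of 9 members and in pistil for none. Among all genes the shares were 21.0% and 19.4%, and no test of a difference was made. MIR166b had an IM peak at 714 bp (fold 4.15, −log10 p 55.7), and MIR166c and MIR166d shared an IM peak 1531 bp and 318 bp away (3.67, −log10 p 41.3). These −log10 p values are above the lowest of the pistil list. A strong pistil peak (7.04) had its summit 3734 bp from MIR166b, outside the window, and by peak overlap MIR166b was called in pistil too.

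For miR164, which limits the boundary genes CUC1 and CUC2, MIR164b had weak peaks in both lists (folds 2.98 and 3.13, at 2221 bp and 2235 bp). MIR164a and MIR164c, the latter known for its part in petal number, had nearest summits more than 10 kb away (13063 bp and 105126 bp in IM). MIR396b, whose product targets growth-regulating factor genes, had an IM peak at 2382 bp (3.56) and a pistil peak at another place, 816 bp away (3.19). MIR396a had none near it. Of the miR170 and miR171 genes, which target the HAM genes of meristem maintenance, MIR171b had a pistil peak at 287 bp (3.56), and MIR170, MIR171a and MIR171c had none within 3 kb.

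The miR169 family, which targets NF-YA transcription factor genes, had summits near 8 of 14 genes in IM and 7 in pistil, but several of these rest on 1 site. A tandem array of 6 genes, MIR169i to MIR169n, held 1 IM peak (fold 2.77, rank 3575 of 3650) that lay within 3 kb of MIR169i, j, k and l. It also held 1 pistil peak (3.13, rank 3087), with its summit 195 bp from MIR169j, that was counted for MIR169i, j and k. The separate genes had higher folds. MIR169c was nearest to summits at 731 bp in IM (5.27) and 763 bp in pistil (4.51), and MIR169a to summits at 1015 bp (5.09) and 886 bp (3.42). MIR169b had folds of 4.39 and 5.25 at 2014 bp and 1843 bp, and MIR169f of 3.33 (rank 2516) and 6.60 (rank 598) at 1637 bp and 1695 bp. The MIR169f summits were inside the gene AT3G14380 (chromosome 3, 4803640 to 4804358 in IM and 4803524 to 4804516 in pistil). MIR169d, e, g and h had none within 3 kb.

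Among families that target genes of the microRNA machinery, both miR168 genes, which target AGO1, were counted in both lists. MIR168b was the nearest gene to summits at 70 bp in IM (fold 4.77) and 104 bp in pistil (4.97), with both peaks overlapping the gene, and MIR168a had summits at 752 bp (4.18, rank 1351) and 699 bp (5.77, rank 829). The MIR168a summits were inside the non-coding gene AT4G06880, in peaks on chromosome 4 (10579017 to 10580677 in IM and 10577839 to 10580841 in pistil). MIR162a, which targets DCL1, had an IM peak at 740 bp (3.18), 48 bp from NF-YB12, while MIR162b and MIR403, which targets AGO2, had none within 3 kb. Of 15 genes of microRNA production and action, 8 had a summit in IM (53.3%, against 23.7% of protein-coding genes) and 3 in pistil (20.0%, against 21.3%), so the pistil share was near that of genes in general. In IM these were DCL1 (fold 3.40), SE (4.85), AGO1 (4.43), AGO7 (4.08), AGO10 (5.37), TGH (3.95), SQN (3.64) and CPL1 (3.49). In pistil they were AGO1 (2.80), AGO10 (3.58) and TGH (4.84). The list of these 15 genes was chosen with earlier results of these data known.

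Among families of nutrient and stress response, none of the 6 miR395 genes (sulphate) had a summit within 3 kb in either list. These are not 6 separate loci, since MIR395a, b and c share a stretch of overlapping windows and MIR395d, e and f another. The 2 miR397 genes and MIR408 (copper) had no summit within 3 kb in either list. Of the 6 miR399 genes, which relieve repression of phosphate uptake by targeting PHO2, MIR399a had peaks at 1704 bp in IM (fold 5.33, rank 585) and 1636 bp in pistil (8.82, rank 248, chromosome 1, 10228431 to 10229819), nearer to AT1G29270. MIR399c had an IM peak at 1385 bp (4.04), 663 bp from the MADS-box gene AGL42. The neighbours MIR398b and MIR398c, whose product targets superoxide dismutase genes, had a pistil peak (3.45, 369 bp from MIR398b) and an IM peak (3.04, 402 bp from MIR398c) at different places.

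The chosen range of family numbers takes in MIR158, MIR161 and MIR163, which are known from few plant species. MIR158a was the nearest gene to summits at 50 bp in IM (fold 4.72) and 124 bp in pistil (3.62). MIR161 had a pistil peak at 363 bp (3.16), and MIR391 had peaks at 923 bp in IM (3.87) and 910 bp in pistil (3.94), inside AT5G60400. MIR158b and MIR163 had none within 3 kb.

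By peak rather than by gene, 44 IM peaks and 38 pistil peaks had summits within 3 kb of a conserved microRNA gene. Their median fold was 3.95 in IM and 4.63 in pistil, and 23 of the 44 and 21 of the 38 were above the median of their list. Without the peaks of miR156 and miR157 genes, the medians were 3.87 and 3.94, the latter below the 4.10 of the whole pistil list. No summit of either list lay inside a conserved microRNA gene as annotated, although the peaks themselves overlapped 12 of these genes in IM and 12 in pistil. The median distance of a summit from the nearest member was 971.5 bp in IM and 988 bp in pistil, and 22 of the 44 and 19 of the 38 were within 1 kb.

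A conserved microRNA gene was the nearest gene of any kind for 17 of the 44 IM peaks and 17 of the 38 pistil peaks. By that stricter count 17 members were called in each tissue (17.3%). Of all genes 8.95% were so called in IM and 8.33% in pistil, and of the other microRNA genes 1.75% and 3.07%. MIR156c, MIR156e, MIR157d, MIR158a, MIR159a, MIR164b, MIR168b, MIR169a, MIR169c, MIR390a, MIR394a and MIR396b were nearest in both lists. Among the peaks with folds above 8, in the pistil list, this held for MIR394a and not for MIR319c, MIR157c, MIR399a or MIR156a. Another gene was also nearer to the peaks of MIR160a, MIR171b, MIR172a, MIR172d, MIR398b and MIR398c, among others. The table gives no strand or transcription start, so a summit before the start of a primary transcript was not told apart from one behind its end.

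**Figure D4:**
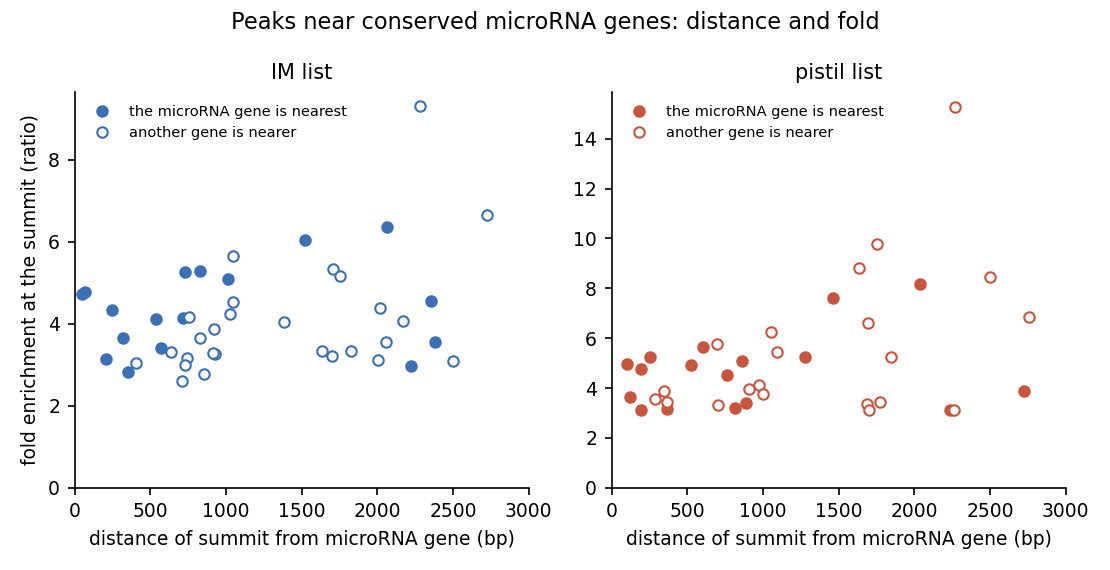
Each point is a peak within 3 kb of a conserved microRNA gene, placed by the distance (bp) of its summit from the nearest such gene and by its fold enrichment (ratio), for the IM list (left) and the pistil list (right). Filled points mark the 17 peaks of each list for which the microRNA gene was the nearest gene, and open points those with another gene nearer, among them both peaks near MIR319c.

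Most sites near these genes were shared by the lists, as were most peaks of each whole list. With 1 bp or more counted as overlap, 29 of the 44 IM peaks met a pistil peak (65.9%, against 59.5% of the whole list), and of the 38 pistil peaks 28 met an IM peak (73.7%, against 63.4%). Summits of overlapping peaks lay close together, at a median of 47 bp over 29 pairs, where all 2237 overlapping pairs of the lists had a median of 44 bp. In 25 of the 29 pairs (86.2%, against 74.3% of all pairs) they were within 100 bp. The 29 pairs were kept only where both summits lay within 3 kb of a member, a limit not set for all pairs. The 2 shares are therefore not on equal terms. Peaks of genes counted in both lists had median folds of 4.18 in IM and 4.97 in pistil. Those of genes counted in 1 list had medians of 3.49 (IM) and 3.56 (pistil). The same medians were not taken over all genes, so the contrast is not known to be particular to microRNA genes. The IM peak of the MIR169i to MIR169n array entered both groups, through MIR169i, j and k and through MIR169l, although it overlapped a pistil peak.

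The genes counted in the IM list alone were MIR157a, MIR162a, MIR166b, MIR166c, MIR166d, MIR167d, MIR169l, MIR172d, MIR319a, MIR319b, MIR398c and MIR399c. Those counted in the pistil list alone were MIR160b, MIR161, MIR167a, MIR171b, MIR172a, MIR172b, MIR390b and MIR398b. The IM peak of MIR169l overlapped a pistil peak, whose summit lay 3145 bp from the gene, just outside the window. Counted by peak overlap, MIR166b and MIR169l were also called in pistil, and MIR398b in IM. Of the 12 in IM, 7 had a peak at or above the lowest −log10 p of the pistil list and 5 did not (MIR162a, MIR169l, MIR172d, MIR319b and MIR398c). With the pistil list's limit applied to both lists, 28 members were counted in IM (28.6%, against 14.3% of all genes and 10.1% of the other microRNA genes) and 38 in pistil, so that the tissue with more members changed. At this limit 7 members were counted in IM alone (7.14%, against 3.68% of all genes) and 17 in pistil alone (17.3%, against 8.77%). All genes turned the same way, with 14.3% counted in IM and 19.4% in pistil. The limit is not one of equal fold. A fold of 3.10 had a −log10 p of 31.5 in IM (MIR156a) and of 40.1 in pistil (MIR156b). The limit thus dropped an IM peak of fold 3.34 (MIR156j) and kept a pistil peak of 3.13 (MIR164b). The change of order is therefore no measure of a difference in binding. The 9 members that moved from both lists to pistil alone were MIR156a, MIR156j, MIR157d, MIR160a, MIR164b, MIR169f, MIR169i, MIR169j and MIR169k.

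The known targets of these families were counted next, with no test, in lists chosen with earlier results of these data known. Of 84 target genes in 22 lists, 46 had a summit within 3 kb in IM (54.8%, against 23.7% of protein-coding genes) and 42 in pistil (against 21.3%). For miR172, 5 of 6 AP2-like targets were counted in both lists with folds from 6.06 (SNZ) to 7.94 (TOE3) in IM and from 6.28 (SNZ) to 15.1 (AP2) in pistil, each above the highest fold near a miR172 gene in the same list, 3.13 and 5.65. For miR170 and miR171, the target HAM1 had folds of 6.92 and 12.2, while MIR171b had 3.56 in pistil. For miR156 and miR157, 5 of 11 SPL targets were counted in IM and 7 in pistil. The highest folds were 5.73 and 10.7 at SPL2, beside 6.67 and 9.79 for the microRNA genes. The SPL4 peaks are those counted for MIR156i, and the peaks of MIR156j lie in SPL9, so these sites enter on both sides. For miR168 the order was the other way in pistil, with 2.80 at AGO1 and 4.97 and 5.77 at the microRNA genes.

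For miR396 5 of 7 GRF targets were counted in IM and 6 in pistil, with highest folds of 6.29 (GRF3) and 6.88 (GRF2), beside 3.56 and 3.19 at MIR396b. Of the 5 HD-ZIP III targets of miR165 and miR166, 4 were counted in IM, with PHB highest at 6.79, and 2 in pistil. Of the 5 TCP targets of miR319, 4 were counted in IM and 3 in pistil, where TCP4 had a fold of 7.49. ARF3, held down through miR390, had folds of 8.91 and 9.54. LCR, the target of miR394, had a weak IM peak (3.04) and none in pistil. None of the 4 targets of miR408 was counted in either list. Among protein-coding genes 23.7% (IM) and 21.3% (pistil) were counted, so a count of none in 4 genes says little. Many of these targets, among them AP2, HAM1 and ARF3, had their strongest summit outside the gene, at 1647 bp, 256 bp and 2327 bp in IM.

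**Figure D5:**
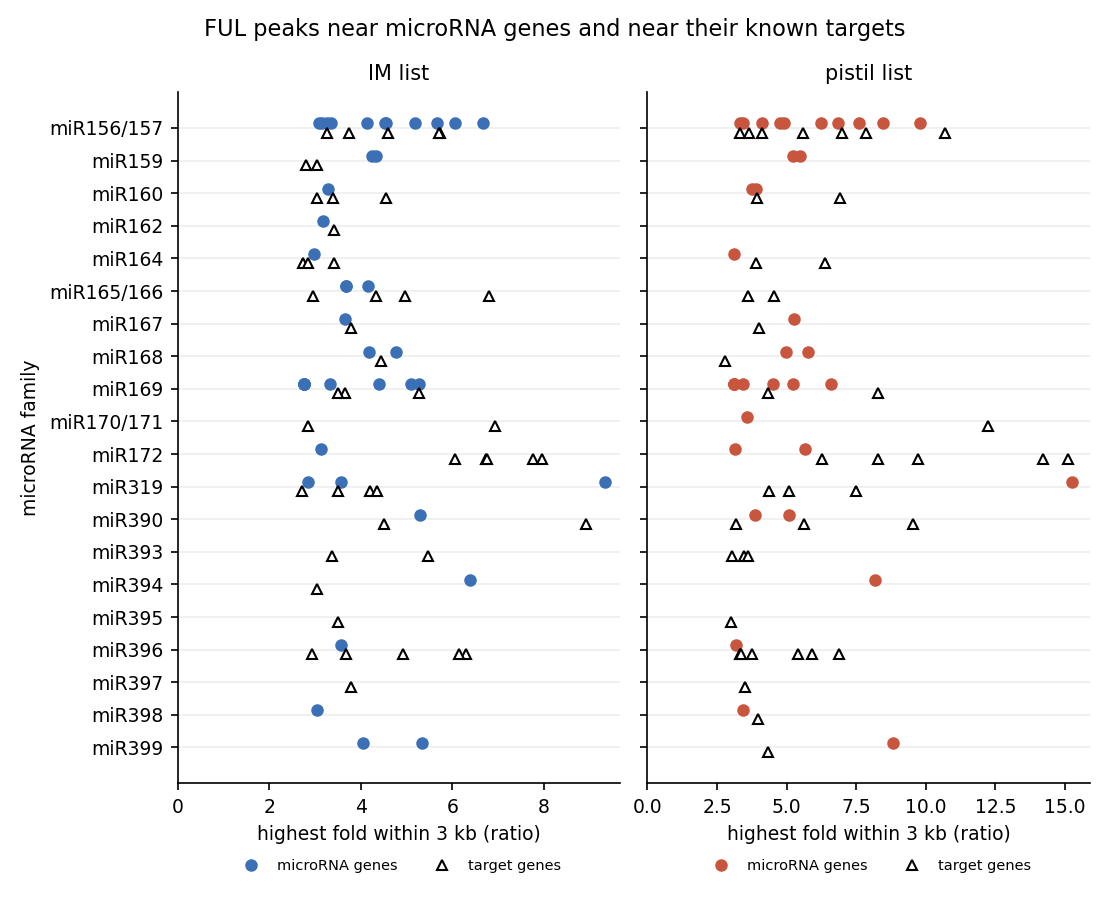
Points show the highest fold enrichment (ratio) within 3 kb of each microRNA gene (filled circles) and of each known target gene (open triangles) of the families with at least 2 genes and a list of targets, in the IM list (left) and the pistil list (right). Genes with no listed summit have no point. In the miR172 row all triangles lie to the right of the circles in both panels, and in the miR319 row MIR319c lies to the right of its targets.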

How the data were processed

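FUL binding was measured by ChIP-seq in 6 samples, grouped by the labels into ChIP and input of each tissue. Per the submitters' processing notes, deepTools, MACS2 2.1.0, Picard 2.60 and Bowtie 1.1.2 were used, in roles not given, and the build was TAIR10. The deposited lists, in narrowPeak layout, hold the authors' fold enrichment (a ratio at the summit), −log10 p values and a score that the authors' file sets at 10 times the −log10 p. Peak names contain "pooled", so replicates were not separated. Peak numbers have gaps, and the rule that selected the listed peaks is not given in the sources used here, so weak sites can be missing. Depth is unknown.

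From these, Python 3.11.15 with pandas 2.3.3 counted genes with a summit (start plus offset) in the gene or within 3 kb. Genes came from a RefSeq table of assembly TAIR10.1, whose coordinates are not printed. Its register with the peaks was checked: 29.5% of IM summits lay in protein-coding genes in place, and 61.2% and 60.5% after shifts of 3000 bp either way (pistil: 26.0%, 58.3% and 57.9%). All 99 names of the pathway lists matched a locus. The counting was tested on simulated summits. Members and lists were chosen with earlier results of these data known. Every member with a summit was to be named, and the 12 with the highest folds were to be given with rank and nearest gene. Planned promoter motifs and strand-aware counts were not run, since no sequence or strand was used here.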

Additional observations from a re-analysis of the deposited data

How the results depend on the processing

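The counts moved with the window, the gene a peak is given to, the fold and the common threshold. The main counts of members with a summit were 42 (IM), 38 (pistil), 30 (both), 12 (IM alone) and 8 (pistil alone). Within 1 kb they fell to 22, 20 and 12 for IM, pistil and both. By the nearest gene they were 17, 17 and 12, with 5 in IM alone and 5 in pistil alone. With folds above the list median they were 22, 21 and 15, with 7 in IM alone. With 1 threshold on −log10 p for both lists, 7 were counted in IM alone and 17 in pistil alone. A window of 5 kb, overlap of the peak in place of the summit, and the alternatives chosen after seeing the data (symbols with a letter, without MIR156i and MIR156j, without the miR156 and miR157 genes, and loci in place of members) kept each of the 5 counts within 1.5 times of the main one. So did the numbers of shared sites under 50% overlap (24 and 24) or summits within 200 bp (27 and 27), and the median folds. Leaving out only MIR156i and MIR156j could not have moved any of the 5 counts that far. Of the 80 calls of a member in a tissue, 42 held within 1 kb, 34 by the nearest gene, 43 with folds above the median and 66 at 1 threshold, and all 80 at 5 kb and by peak overlap. The fall within 1 kb and by the nearest gene follows from how these rules are built. All 80 calls also had to hold at 5 kb and by peak overlap, since any summit within 3 kb meets both rules. No paired analysis was possible because each tissue has 1 list called on its replicates together, and for the same reason no replicate could be left out. The planned count upstream of the start was not run, since the table gives no strand. Depth is unknown, so how far it limits the weak end of each list was not tested.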
